A study of Mus musculus with 10 samples.

Results

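The regions described here are enhancers that flank a promoter closely in mouse cerebral cortex. They were chosen from a table of H3K27ac ChIP-seq regions on the 19 autosomes by 3 conditions: the class enh, a width under 8000 bp, and a gap of 2000 bp or less to the nearest region of class prom or uaProm. The classes are those of the authors, enh being read here as enhancer and prom as promoter, while uaProm is given without its meaning in the labels and headers. The rule found 1737 flanking enhancers among 50898 regions, of which 32614 were of class enh. It used position, class and width and no measured signal, but wider regions tended to have more signal per kb. The median was 16.4 pseudo-counts per kb under 2000 bp and 19.4 from 7000 to 8000 bp.

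The libraries came from C57BL/6J mice aged 8 weeks. One group was heterozygous for a knockout of Dnmt3a (Het, n = 5) and the other was wild type (WT, n = 5). Each Het mouse had a WT littermate, which gave 5 pairs, called litters 1 to 5 here. Litters 1, 3 and 5 were male, and litters 2 and 4 female. The description of Het replicate 5 carries the term cKO, while its genotype label gives a heterozygous knockout, and it was used as Het. The tissue was whole cortex, so a change in the share of a cell type and a change of acetylation within cells cannot be told apart. No gene annotation of mm9, the build of the coordinates, was used here. Regions are therefore named by position, and the Dnmt3a gene and cell type markers were not analysed here.

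H3K27ac is an acetylation of histone H3 carried by nucleosomes at active promoters and enhancers. Nucleosomes on either side of a transcription start site carry it, and it can spread from there into the start of the gene or join with enhancers close by. Dnmt3a is a DNA methyltransferase that sets new methylation marks and is known in neurons for methylating cytosines outside CG dinucleotides. Active enhancers that carry H3K27ac usually have little DNA methylation.

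Values are pseudo-counts, which are read counts adjusted by the authors to 1 common library size. Whole reads recovered from them gave 51640 to 149870 reads in the flanking enhancers per library, lowest in WT replicate 5 and highest in Het replicate 2. The median was 44 reads per flanking enhancer and library, against 58 over all regions, and 53.2% of flanking enhancers had 20 or more reads in every library. Reads in all regions did not differ between genotypes beyond the spread (exact two-sided permutation p = 0.897, n = 5 each).

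Most flanking enhancers lay more than 1000 bp from their promoter region. The gap ran from 31 to 2000 bp with a median of 1302 bp and quartiles of 1026 and 1620 bp. Short gaps were rare: 109 of 1737 had 800 bp or less, and 283 had more than 800 and up to 1000 bp. Of the flanking enhancers, 901 lay on the side of lower coordinates and 836 on the other side. Chromosome 2 held the most, 154, and chromosome 19 the fewest, 46.

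**Figure D1:**
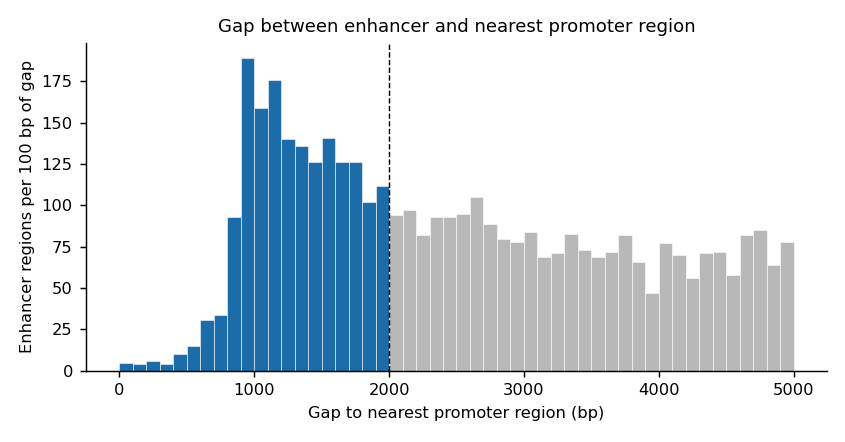
Number of autosomal enh regions under 8000 bp wide (y axis) by gap to the nearest promoter region in steps of 100 bp (x axis). Blue bars are the flanking enhancers and grey bars are regions past the limit of 2000 bp, which the dashed line marks. The count rises steeply between 800 and 1000 bp.

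Their widths ran from 774 to 7995 bp with a median of 2553 bp, and the same smallest width of 774 bp was found in every class compared here. Distal enhancers, meaning the 28250 other autosomal enh regions under 8000 bp, had a median width of 2212 bp. A further 246 autosomal enh regions lay within 2000 bp of a promoter region but were 8000 bp wide or more, and were not included. In 21.5% of cases the flanking enhancer was wider than its promoter region.

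The 1737 flanking enhancers shared 1670 promoter regions, 9.40% of the 17762 on autosomes. Of these promoter regions, 1603 had 1 flanking enhancer and 67 had 2, always 1 on each side. A second promoter region also lay within 2000 bp of 43 flanking enhancers. The class uaProm made up 7.90% of the 1670 promoter regions and 9.81% of the 16092 other autosomal ones. Promoter regions with flanking enhancers were wide: their median width was 5263 bp with 1 flanking enhancer and 6523 bp with 2, against 2928 bp without any. Per kb they were not stronger, with medians of 29.6, 24.1 and 30.8 pseudo-counts per kb in the same order.

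Flanking enhancers carried less H3K27ac per length than their promoters. Their median over regions was 17.1 pseudo-counts per kb (quartiles 14.9 and 20.1), against 29.3 in the 1670 promoter regions (quartiles 20.1 and 41.6). On the scale of log2(pseudo-count + 1) per kb, the median difference from the own promoter was -0.70 over the 10 libraries (SE 0.041), or 0.615-fold. It was below 0 in every library, lowest in WT replicate 4 (-0.88) and highest in Het replicate 1 (-0.48) (exact two-sided sign-flip permutation p = 0.00195, the smallest that 10 animals allow). Littermates had similar values, and with 1 mean per litter 5 of 5 litters were below 0 (exact permutation p = 0.0625, the smallest that 5 litters allow). By region, 314 of 1737 flanking enhancers (18.1%) had more signal per kb than their promoter. Distal enhancers had a median of 17.6 per kb, and 16.01% of them exceeded their nearest promoter.

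Against distal enhancers the difference per kb was small and did not pass when counted by litter. The median of the flanking enhancers minus that of the distal enhancers was -0.032 on the log2 scale (SE 0.0076, n = 10), or 0.978-fold, and was below 0 in 8 of 10 libraries. The exact sign-flip permutation p was 0.00781 with animals taken as independent. With 1 mean per litter, 4 of 5 litters were below 0 and p was 0.125, where 5 litters cannot go below 0.0625. WT replicate 5 and Het replicate 5, the litter at 0.0080 and 0.0090, were the libraries above 0. With the limit of the gap at 5000 bp the difference was -0.021 (exact permutation p = 0.0547 over animals), and with the limit at 1000 bp it was -0.068 (exact permutation p = 0.00586 over animals). Split into 5 classes of equal size by mean signal, from the weakest to the strongest, the difference was -0.054, -0.065, -0.078, -0.064 and 0.0049.

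**Figure D2:**
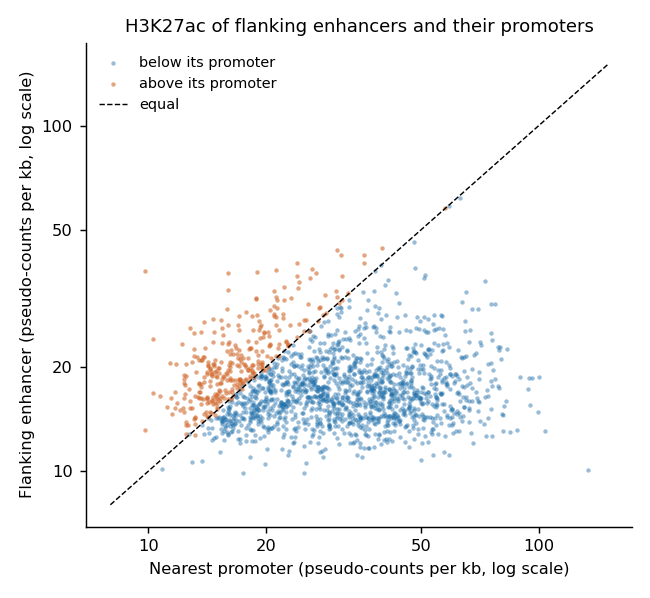
Mean H3K27ac of each of the 1737 flanking enhancers (y axis) against its nearest promoter region (x axis), both in pseudo-counts per kb on log scales. Blue points lie below the line of equality and orange points, 314 of them, above it. The cloud is flat: flanking enhancers stay within a narrow range of levels at weak and strong promoters alike.

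Levels of flanking enhancers hardly followed those of their promoters. Across the 1737 pairs, mean log2 signal per kb correlated with Pearson's r = 0.051 and Spearman's rho = 0.038. For distal enhancers and their nearest promoters r was 0.043 and rho 0.041. These are correlations across regions measured in the same libraries, and regions are not independent replicates. The range of enhancer levels was narrow, which limits any such correlation. At the 67 promoters with an enhancer on each side, the levels of both enhancers correlated with r = -0.25, and the median absolute log2 difference between them was 0.34.

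The 3 flanking enhancers with the highest signal per kb were about as strong per kb as their promoters. This did not hold for strong ones in general. In the strongest of 3 equal classes by mean pseudo-counts (n = 579), the median log2 difference per kb from the promoter was -0.44. The enhancer chr10:59404365-59407488, 1974 bp from its promoter chr10:59409462-59424425, had 61.6 pseudo-counts per kb against 62.7. Its values were 186, 218, 175, 213 and 208 pseudo-counts in WT replicates 1 to 5 and 172, 189, 200.4, 213 and 149 in Het replicates 1 to 5, so the genotypes overlapped. The enhancer chr8:93390617-93397787, next to a uaProm region, had 58.4 per kb against 58.8, and chr6:125037582-125042958 had 57.6 against 57.7.

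Some enhancers stood far above or far below their promoter. The largest excess, among those with a mean of 20 pseudo-counts or more, was at chr9:57912631-57917210, with 38.0 pseudo-counts per kb against 9.80 in the promoter region chr9:57910484-57911670, which lies 961 bp away. WT replicates 1 to 5 had 182, 144, 168, 194 and 152 pseudo-counts in this enhancer, and Het replicates 146, 215, 218, 196 and 124. The promoter had 6.98 to 13.9 pseudo-counts in WT and 8.74 to 19.7 in Het. The enhancer held more signal than it in each of the 10 libraries, but these counts are not per kb. The enhancer is 4579 bp wide and the promoter region 1186 bp. The next were chr9:62131176-62134567, with 24.2 per kb against 10.3, and chr4:139480360-139483464, with 37.5 against 16.01.

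At the other end stood chr5:22932812-22935198, with 10.1 pseudo-counts per kb and a promoter of 134 per kb, chr5:22936093-22943421, at a gap of 895 bp. This promoter was the strongest per kb among the 1670. The enhancer had 36.8, 24.5, 25.8, 24.6 and 26.8 pseudo-counts in WT replicates 1 to 5 and 26.6, 19.0, 16.6, 19.95 and 19.5 in Het replicates 1 to 5. It was lower in Het in 5 of 5 litters while the ranges overlapped, and its log2 difference of -0.43 (SE 0.21) did not pass (limma adjusted p 1.00). The enhancer chr16:8833161-8836257 had 13.1 per kb against 104 in its promoter, and chr5:148245680-148250356 had 13.2 against 88.2.

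The main comparison asked whether H3K27ac at flanking enhancers differs between Het and WT littermates. No flanking enhancer passed. In limma fitted to all 50898 regions with sex and genotype as terms, 0 of 1737 had an adjusted p under 0.05, where 1 region of the whole table did (0.00196%). The smallest adjusted p was 1.00. At an unadjusted p under 0.05, 43 flanking enhancers (2.48%) were found, against 2.1% of all regions. With litters as a block, which replaces the sex term, 0 of 1737 passed again, against 0.00589% of all regions, and the smallest adjusted p was 0.642. With the block 93 (5.35%) had an unadjusted p under 0.05, against 4.63% of all regions. Limma-voom on the recovered reads also called 0, without and with the block. The authors' deposited table lists 35 flanking enhancers (2.01%) with a p-value under 0.05, against 1.76% of all regions. An FDR under 0.05 in the authors' deposited table is held by 0 flanking enhancers and by 2 of all regions (0.00393%).

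The log2 fold changes of the flanking enhancers ran from -0.71 to 0.77 with a median of 0.026. The median was 0.031 in distal enhancers and 0.0092 over all regions, which include the promoter regions. The median of the flanking enhancers was -0.0078 without WT replicate 4, -0.00056 without Het replicate 1 and 0.080 without Het replicate 3. With median-of-ratios factors the medians were 0.0055 in flanking enhancers and -0.012 over all regions. Fold changes above 0 were found in 57.7% of flanking enhancers and in 53.0% of all regions, and with median-of-ratios factors in 51.6% and 46.3%. The median SE was 0.17. In 77.2% of flanking enhancers the 95% interval of the difference lay within 1.5-fold either way, against 81.25% of all regions. Higher values in Het in 5 of 5 litters were seen in 76 flanking enhancers (4.38%, against 3.53% of all regions) and lower values in 38 (2.19%, against 2.46%). All Het libraries lay above all WT libraries in 4 flanking enhancers (0.23%, against 0.226% of all regions) and below them in 2 (0.115%, against 0.149%). These shares were near those of the whole table.

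The 10 flanking enhancers with the smallest p, 5 in each direction, did not pass, and as extremes of many regions their differences can overstate any real ones. The enhancer chr12:102008101-102015090 lies 936 bp from the promoter chr12:102016026-102019899. It had 90.3, 92.0, 94.4, 73.8 and 94.2 pseudo-counts in WT replicates 1 to 5 and 119, 110.3, 105, 101 and 153 in Het replicates 1 to 5. Each Het library was above each WT library. The WT mean was 88.9 ± 8.63 and the Het mean 118 ± 20.8 (SD, n = 5 each), a log2 difference of 0.39 (SE 0.12). Limma gave an adjusted p of 1.00, and 0.642 with the litter block. Its promoter had 112 ± 15.2 and 122 ± 22.7, a log2 difference of 0.11 (SE 0.12), and was higher in Het in 3 of 5 litters.

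The enhancer chr15:93357752-93362649 had 97.1, 78.0, 93.3, 69.8 and 86.8 pseudo-counts in WT and 117, 84.7, 102, 117 and 126 in Het, higher in Het in 5 of 5 litters with overlapping ranges. Its log2 difference was 0.36 (SE 0.12), while its wide promoter, chr15:93340398-93356096, had -0.0067 (SE 0.095). For chr13:49277246-49279557 the means were 31.7 ± 10.3 in WT and 46.4 ± 11.1 in Het. The difference was 0.56 (SE 0.20) on the log2 scale at this enhancer and 0.085 (SE 0.094) at its promoter, each higher in Het in 5 of 5 litters. A weak region, chr1:64970513-64971963, had 15.9 ± 3.5 and 26.3 ± 7.64. The fifth, chr18:70723475-70725638, had 28.5 ± 8.04 and 41.0 ± 4.37, and Het exceeded WT in 4 of 5 litters.

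Among the 5 with lower values in Het, chr4:131465784-131467341 had the largest fold difference. WT replicates 1 to 5 had 37.1, 27.8, 34.4, 32.7 and 37.4 pseudo-counts and Het replicates 21.6, 24.3, 14.2, 15.7 and 28.8. Only Het replicate 5 reached into the range of the WT libraries, above WT replicate 2. The log2 difference was -0.71 (SE 0.21, limma adjusted p 1.00, and 0.642 with the litter block), or lower in Het in 5 of 5 litters. The promoter chr4:131468740-131483862, 1399 bp away, had 357 ± 26.5 in WT and 372 ± 75.8 in Het, a log2 difference of 0.040 (SE 0.10).

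For chr16:10548634-10551958 the values were 113, 100.4, 95.6, 98.3 and 92.6 pseudo-counts in WT and 79.6, 85.5, 82.8, 81.8 and 61.9 in Het, with no overlap. Its log2 difference was -0.35 (SE 0.12), and its promoter's was -0.084 (SE 0.13). The enhancer chr3:95046725-95048174 had 38.2 ± 3.49 in WT and 26.6 ± 6.91 in Het, chr19:36774988-36777660 had 93.2 ± 9.08 and 74.1 ± 6.30, and chr6:58791471-58795748 had 100.3 ± 10.6 and 80.7 ± 8.30. Each of these was lower in Het in 5 of 5 litters. The promoters of the 5 did not share this direction throughout: 3 had log2 differences above 0 (0.040, 0.22 and 0.15) and 2 below 0 (-0.084 and -0.035).

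**Figure D3:**
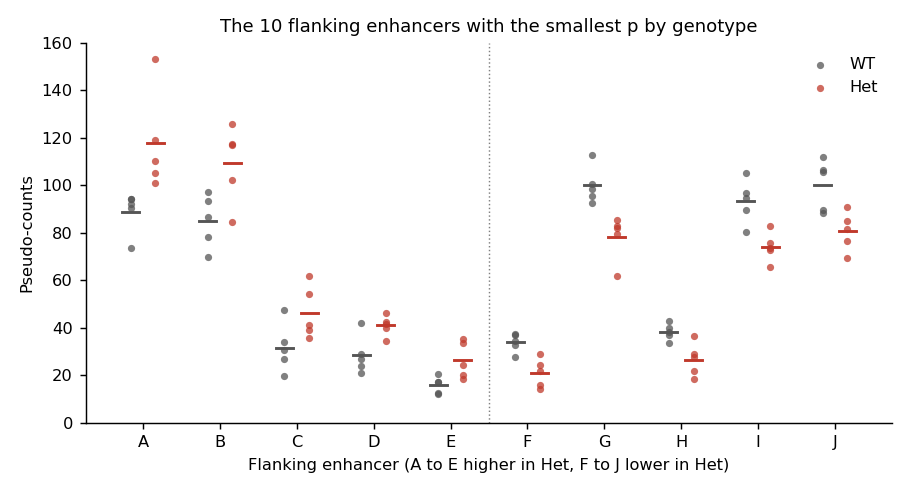
Pseudo-counts (y axis) in each WT (grey) and Het (red) library for the 10 flanking enhancers with the smallest p by genotype, with bars at the group means (n = 5 each). A to E are chr12:102008101-102015090, chr15:93357752-93362649, chr13:49277246-49279557, chr18:70723475-70725638 and chr1:64970513-64971963. F to J are chr4:131465784-131467341, chr16:10548634-10551958, chr3:95046725-95048174, chr19:36774988-36777660 and chr6:58791471-58795748. None passed the test, and the groups do not overlap in A and G.

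No promoter of a flanking enhancer passed between the genotypes, with or without the litter block. The 3 regions called with the block, chr3:55583419-55588269, chr19:6904094-6905922 and chr7:112910456-112911709, had their nearest enh region at gaps of 12805, 2625 and 2465 bp, past the limit used here. Those enh regions had log2 differences of -0.12 (SE 0.14), 0.13 (SE 0.20) and 0.0027 (SE 0.15).

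Enhancer and promoter were next compared within each littermate pair. The median Het minus WT difference of the flanking enhancers was 0.13, -0.049, -0.098, 0.090 and 0.068 in litters 1 to 5. In the 1670 promoters it was -0.045, 0.040, 0.011, -0.011 and -0.022. These enhancers and promoters had medians of opposite sign in every litter. The 16092 other autosomal promoter regions had -0.046, 0.032, -0.030, 0.0097 and -0.034, with the sign of the enhancers in litters 3 and 4. Enhancer minus promoter averaged 0.033 (SE 0.056, n = 5) and was above 0 in litters 1, 4 and 5. The exact sign-flip permutation p was 0.625, where 5 litters allow 0.0625 at best. Without litter 1 the average was -0.0017.

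The distal enhancers had medians of 0.14, -0.069, -0.071, 0.084 and 0.079 in the same litters, the same signs as the flanking enhancers. Flanking minus distal averaged -0.0059 (SE 0.0084), with values above 0 in litters 2 and 4. The exact sign-flip permutation p was 0.5. The share of signal in all autosomal promoter regions moved with these medians. From WT to Het it went from 57.0 to 54.5% in litter 1, 55.8 to 57.4% in litter 2, 59.2 to 59.6% in litter 3, 59.8 to 59.0% in litter 4 and 57.3 to 55.6% in litter 5. It fell where the enhancer median was above 0 and rose where it was below 0, and its part in the medians was not tested. The share of all signal found in flanking enhancers was 1.78 ± 0.0917% for WT and 1.81 ± 0.141% for Het (SD, n = 5 each). A two-sided exact permutation test gave p = 0.683 (0.960 after adjustment over 12 measures per library).

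**Figure D4:**
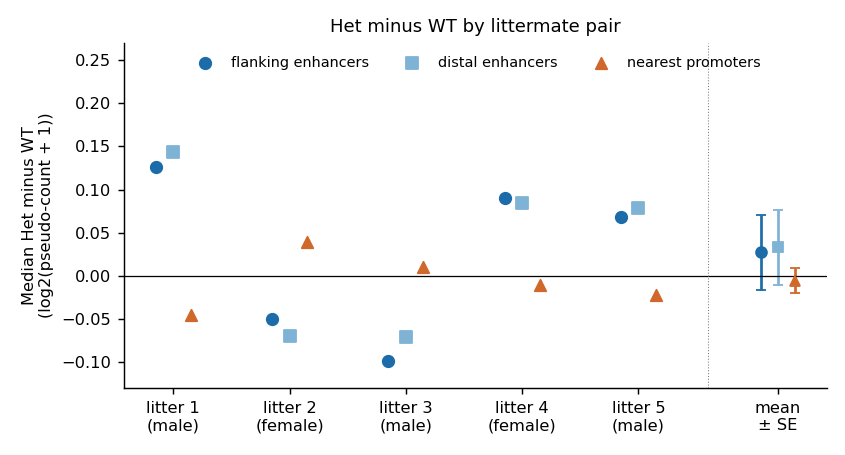
Median Het minus WT difference in log2(pseudo-count + 1) (y axis) for each littermate pair (x axis), over flanking enhancers (circles), distal enhancers (squares) and the promoters nearest to flanking enhancers (triangles). At the right are the means over 5 litters with their SE. In each litter both kinds of enhancer lie on one side of 0 and the promoters on the other.

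The ratio of each enhancer to its own promoter gave 0 calls. In limma on the log2 ratio over all 29987 autosomal enh regions under 8000 bp, 0 of 1737 flanking enhancers had an adjusted p under 0.05 (0.0% of all tested), and 42 (2.42%) had an unadjusted p under 0.05, against 2.81%. The litter block also gave 0, with 62 (3.57%) at an unadjusted p under 0.05, against 4.64% of all tested. The share of flanking enhancers whose Het minus WT exceeded that of their promoter was 65.3% in litter 1, 39.8% in litter 2, 40.9% in litter 3, 58.4% in litter 4 and 58.6% in litter 5.

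At the ratios with the smallest p, enhancer and promoter differed in opposite directions. Picking ratios by small p favours such pairs, so this direction is not a separate result. At chr3:95046725-95048174 the enhancer had 36.8, 38.3, 33.4, 42.7 and 40.1 pseudo-counts in WT and 36.4, 28.8, 22.0, 27.6 and 18.4 in Het. Its promoter chr3:95044246-95045798, 927 bp away, had 21.8, 20.2, 25.7, 21.4 and 33.3 in WT and 37.4, 23.95, 24.6, 28.8 and 28.5 in Het. The log2 ratio was lower in Het by -0.76 (SE 0.18, limma unadjusted p 0.000436, adjusted p 1.00). At chr8:35955650-35956728 the ratio was higher in Het by 0.76 (SE 0.22, unadjusted p 0.00303, adjusted p 1.00). There the enhancer had 21.6 ± 6.38 in WT and 24.2 ± 5.53 in Het, and its uaProm region chr8:35953239-35954576 had 29.0 ± 7.81 and 19.0 ± 6.39 and was lower in Het in 5 of 5 litters. The other ratios named by rule were 0.62 (SE 0.18) at chr11:76285864-76286794, 0.59 (SE 0.20) at chr18:70723475-70725638, -0.75 (SE 0.21) at chr4:131465784-131467341 and -0.49 (SE 0.19) at chr5:33696725-33698110.

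Across regions, an enhancer and its promoter moved together weakly within a litter. Het minus WT of the 1737 pairs correlated with r = 0.096, 0.073, 0.070, 0.101 and 0.094 in litters 1 to 5. Both values of a pair come from the same 2 libraries. When the enhancer was taken from one litter and the promoter from another, which share no library, r ran from -0.040 to 0.062 over 20 combinations with a median of 0.0037. Distal enhancers gave r from 0.023 to 0.078 within litters, with a median of 0.037, against a median of 0.094 for flanking enhancers.

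Over the 10 animals, with the genotype means removed, the median r between a flanking enhancer and its promoter was 0.14, and 60.3% of the values were above 0. By gap, this median was 0.14 up to 1000 bp, 0.12 from 1000 to 1500 bp and 0.15 from 1500 to 2000 bp. For enh regions past the limit, it was 0.14 from 2000 to 2500 bp and 0.15 from 2500 to 5000 bp. It was 0.091 from 5000 to 10000 bp, 0.059 from 10000 to 50000 bp and 0.013 beyond. The correlation across regions of the fitted Het minus WT differences went otherwise: it was 0.14, 0.15 and 0.095 in the 3 classes of gap up to 2000 bp, -0.0099 from 2000 to 2500 bp, and 0.028 to 0.052 at longer gaps. Within litters, r also differed with signal. In the strongest of 3 equal classes of flanking enhancers, at 61.2 pseudo-counts or more, the median r within litters was 0.12, against 0.078 in the weakest. Distal enhancers of the same ranges of signal had 0.063 and 0.031. At the 67 promoters with an enhancer on each side, the enhancers correlated with each other within litters at a median r of 0.10, and with the promoter between them at 0.098 and 0.17.

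**Figure D5:**
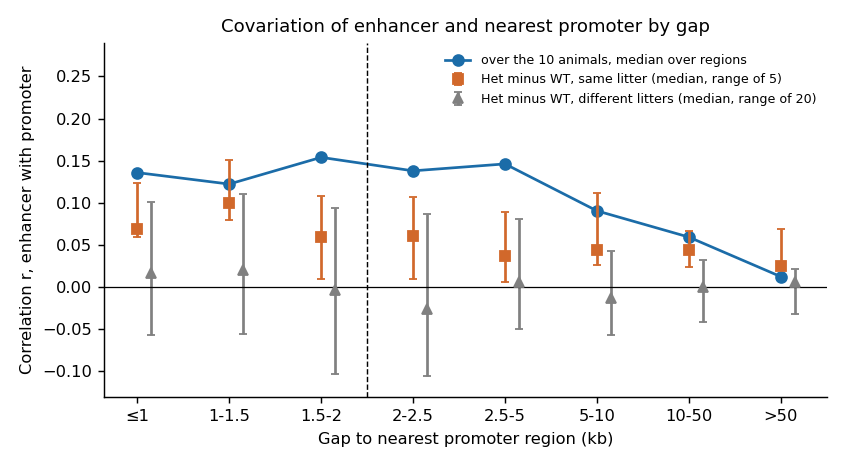
Correlation between enh regions and their nearest promoter (y axis) by gap in kb (x axis); the dashed line marks the limit of 2 kb. Circles give the median over regions of r across the 10 animals with genotype means removed. Squares give r across regions of Het minus WT in the same litter (median and range of 5), and triangles the same with enhancer and promoter from different litters (median and range of 20). The circles stay between 0.12 and 0.15 up to 5 kb and fall to 0.013 beyond 50 kb, and the triangles lie around 0.

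The values just inside and just outside the limits of the rule were as follows. Enhancers with gaps from 1500 to 2000 bp (n = 608) had a median of 17.3 pseudo-counts per kb and a median log2 Het minus WT of 0.022, and those from 2000 to 2500 bp (n = 460) had 17.5 and 0.032. By width, those from 7000 to 8000 bp (n = 73) had 19.4 per kb and 0.031, and the regions from 8000 to 9000 bp within the same gap (n = 52) had 21.9 and -0.016. By promoter class, the 1599 flanking enhancers next to prom had 17.0 per kb and a median Het minus WT of 0.026, and the 138 next to uaProm 17.5 and 0.026.

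Litters were of 1 sex each, so sex and litter cannot be told apart. The comparison rests on 3 male and 2 female litters. Its fit held no litter term, so the p-values by sex take littermates as independent. Between the sexes 8 flanking enhancers passed, all higher in males. They were 0.461% of the 1737, against 0.841% of all regions called higher in males. None was lower in males, against 0.0629% of all regions. All regions include those on the sex chromosomes, where the rule takes no flanking enhancer, so these shares do not compare like with like. Among autosomal regions, 31 of the 1670 promoters (1.86%) and 116 of the distal enhancers (0.411%) were called in either direction. The count depended on single libraries, as did that over all regions, which was 460 in both directions. It was 31 without WT replicate 2 (978 of all regions), 2 without WT replicate 3 (90), 2 without WT replicate 4 (14) and 4 without WT replicate 5 (128). Without Het replicate 1 it was 2 (93 of all regions), without Het replicate 2 it was 0 (18), without Het replicate 4 it was 1 (19) and without Het replicate 5 it was 3 (95). Without Het replicate 3, 100 flanking enhancers (5.76%) were called, 92 higher and 8 lower in males, against 7.03% of all regions. The median log2 difference of males minus females was 0.074 in flanking enhancers, 0.051 in distal enhancers and -0.015 in the promoters. That of the flanking enhancers was 0.036 with median-of-ratios factors, 0.034 without WT replicate 4, 0.047 without Het replicate 1, 0.12 without WT replicate 2 and 0.12 without Het replicate 3.

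The enhancer chr5:151052701-151054922 had the largest difference. Males had 36.9 to 56.9 pseudo-counts with a median of 48.1, and females 18.0 to 24.98 with a median of 21.9, with no overlap. The log2 difference was 1.07 (SE 0.19, limma adjusted p 0.00517). Its promoter, chr5:151055863-151069170, did not pass (log2 difference 0.080, SE 0.090, adjusted p 0.775). The enhancer chr1:74058084-74065289 had 94.1 to 168 in males and 68.6 to 112 in females, which overlapped. Its log2 difference was 0.64 (SE 0.15, adjusted p 0.0295), and its promoter chr1:74032160-74057569 was also higher in males, by 0.49 (SE 0.091, limma adjusted p 0.00768). The enhancer chr12:81182496-81187715 had 113 to 166 in males and 80.1 to 108 in females, with no overlap. Its difference was 0.61 (SE 0.12, limma adjusted p 0.0104), beside 0.43 (SE 0.12, adjusted p 0.0612) at its uaProm region. Of the 8, the promoter of 2 was also called, 4 had no overlap between sexes, and 6 were wider than 5000 bp, where 15.8% of all flanking enhancers were. Calling by p favours regions without overlap, and their share over all regions was not counted. It also favours regions with a small SE, and the widths of the regions called over the whole table were not compared.

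Whether the genotype difference depended on sex was tested by the interaction term. No flanking enhancer passed in limma (0.0% of all regions), 21 (1.21%) had an unadjusted p under 0.05 against 1.36% of all regions, and the litter block gave 0 as well, with 53 (3.05%) at an unadjusted p under 0.05, against 3.59% of all regions. The smallest p was at chr17:31706559-31708270, with an interaction of 0.91 (SE 0.34, adjusted p 1.00). Its WT replicates 1 to 5 had 34.0, 48.8, 37.7, 51.8 and 36.1 pseudo-counts and its Het replicates 52.1, 32.6, 61.3, 41.1 and 39.0. It was higher in Het in the 3 male litters and lower in the 2 female ones. The next, chr19:3680186-3682703, had an interaction of -0.88 (SE 0.34, limma adjusted p 1.00).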

How the data were processed

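H3K27ac ChIP-seq was measured in 10 cortex samples. The authors' tools, from the submitters' processing notes, include Bowtie2 and edgeR, with the build mm9; the region caller is not named there. For each region the authors deposited a signal value per sample, called pseudo-counts in the headers. Beside it stand the authors' log2 fold change and log2 CPM and their p-value and FDR, per the file headers. Adjusting libraries to 1 size hides a uniform change of acetylation. Inverting the adjustment at a dispersion of 0.0151 gave back read counts: 100% of values then lay within 0.1 of whole reads, and 9 values were deposited as 0. They served for depth and limma-voom only. Reads in all regions ran from 2771534 to 8453140 per library.

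Limma 3.58.1 (trend, robust; R 4.3.3) was fitted to log2(value + 1) of all 50898 regions, with sex and genotype as terms, all 10 samples and Benjamini-Hochberg adjustment at 0.05. Such fold changes understate changes of weak regions. Medians were compared by exact sign-flip or group permutations over animals or litters. Fits were tested on simulated data. The labels name littermates, so replicate numbers pair the samples; deviations from group means correlated within litters 1 to 5 at 0.23, 0.12, 0.080, 0.37 and 0.42 over all regions and at 0.13, 0.12, 0.013, 0.25 and 0.37 over flanking enhancers. Over all regions, Het replicates 2 and 3 correlated best with WT replicate 4, the others with their littermate. Coordinates are those of the table. Named regions were the 5 smallest p per direction for genotype, the 3 highest and 3 lowest against the promoter (mean of 20 or more), the 3 highest per kb, the 3 largest differences by sex per direction among those called, the 2 smallest p for the interaction and the 3 smallest p per direction for the ratio. Members, lists and rules were chosen with earlier results of these data known.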

Additional observations from a re-analysis of the deposited data

Results flagged for a closer look

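Among 78 groups of 5 values, 6 held a library far from the other 4, where chance gives about 1 in 20. These 6 were at regions picked from the same data by p or by level against the promoter. The chance rate is for groups not picked in this way and cannot be set against them. WT replicate 4 had 73.8 pseudo-counts at chr12:102008101-102015090, against 90.3 to 94.4 in the other WT libraries, and 8.33 at chr11:76285864-76286794, against 15.0 to 17.2. Het replicate 5 had 61.9 at chr16:10548634-10551958, against 79.6 to 85.5 in the other Het libraries. WT replicate 5 had 107 at chr9:62131176-62134567, against 67.8 to 75.7. WT replicate 1 had 36.8 at chr5:22932812-22935198, against 24.5 to 26.8. WT replicate 2 had 33.0 at chr8:35955650-35956728, against 18.4 to 19.2. The median Het minus WT of flanking minus distal enhancers was below 0 in the 3 male litters and above 0 in the 2 female litters, at -0.017, 0.020, -0.028, 0.0058 and -0.010 in litters 1 to 5. Male minus female litters gave -0.031, and this difference was not tested.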

How the results depend on the processing

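The count of 0 flanking enhancers between genotypes, alone or as a ratio to the promoter, held under other scaling (median-of-ratios factors), a mean of 20 or more, a pseudocount of 5, a threshold of 0.10 and without each library. For the first count it also held with limits of 1000 and 5000 bp, limma-voom and no sex term. The replicate block, which pairs littermates, gave 0 for these and for the interaction and changed no call at a flanking enhancer. The log2 differences of the 10 named enhancers kept their sign in all 140 alternatives run. These enhancers were picked by smallest p and the alternatives reuse the same libraries, so this is not independent support. The replicate block and the fit without a sex term leave these differences unchanged by design. The 8 calls between sexes (460 over all regions) became 30 at a threshold of 0.10 (1146 over all regions) and 4 with median-of-ratios factors (94), and ran from 0 to 100 without single libraries (14 to 3580). Flanking minus distal enhancers in Het minus WT turned to 0.0063 with a limit of 1000 bp, and ran from -0.012 to -0.00046 without single litters. Enhancer minus promoter in Het minus WT ran from -0.0017 (without litter 1) to 0.068. The log2 ratio per kb to the promoter was higher in Het by 0.034; it ran from -0.018 to 0.083 without single libraries, below 0 without WT replicate 4 (-0.0062) or Het replicate 1 (-0.018). Flanking minus distal signal per kb, at -0.032, had an exact permutation p of 0.125 with littermates paired into 1 mean per litter. It was -0.021 with a limit of 5000 bp (exact permutation p = 0.0547) and ran from -0.036 to -0.029 without single libraries. Averaged over 5 classes of signal it was -0.051, where signal per kb cannot be told apart from width. That average was an alternative chosen after seeing the data, as were limma-voom and the means per litter. The cause of these changes was not tested. The median SE of single flanking enhancers was 0.17 on the log2 scale, at a median of 44 reads per library, and the part of depth in it was not tested.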
